A study of Mus musculus with 24 samples.

Results

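Liver RNA of mice given sucrose to drink was set against liver RNA of mice given water, with both leptin receptor genotypes in a single comparison. The libraries were chosen by their titles, which gave 8 of the 24 libraries of the series. These were 2 db/db and 2 db/+ livers on sucrose, and 2 db/db and 2 db/+ livers on water. All were from male C57/BL6 mice with a treatment entry of 16 weeks. A db/db mouse carries a defective leptin receptor gene on both chromosomes and becomes obese and diabetic, while a db/+ mouse keeps a working copy and served as the lean genotype on either drink. The labels give no sucrose concentration, intake or body weight, and nothing in them says whether replicates were separate animals, so the p-values measure the spread between these libraries. In 12 samples, 4 of them among the 8 livers compared here, the separate genotype field disagrees with the title, and the titles were used. The count-column names of these 8 livers begin with KO where the title says db/db and with Het where it says db/+. In the same series 4 livers came from mice given brazzein, a sweet-tasting plant protein. Their values are given beside some genes as a description.

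Sucrose is split in the gut into glucose and fructose, and the liver takes up most of the fructose. There, ketohexokinase takes the first step of its breakdown to 3-carbon sugars, which feed glycolysis, glucose release and the making of fat. The transcription factors ChREBP (gene Mlxipl) and SREBP-1c (gene Srebf1) switch on the enzymes of fat synthesis when sugar and insulin are high. The same liver cells also hold the cytochrome P450 enzymes, which oxidise drugs, steroids, retinoids and fatty acids, and resident macrophages called Kupffer cells line the blood channels between them.

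On sucrose, levels of most Cyp2c cytochrome P450 genes were lower than on water in both genotypes, with a summed level of 797 to 1421 CPM (counts scaled to a common library total) on sucrose and 1605 to 2795 CPM on water. Csad, which makes the taurine precursor hypotaurine, was higher in every sucrose liver of each genotype than in either water liver of that genotype. Macrophage markers had higher levels on sucrose, with 23 of 24 above their water level in the pooled estimate. The enzymes of fatty acid synthesis did not share a direction. None of these differences passed edgeR's quasi-likelihood test after adjustment over all 18911 genes tested, where 0 genes were called (percent called 0) and the smallest adjusted p was 0.203. At an unadjusted p under 0.05 there were 1308 genes, of which 684 were higher on sucrose (3.62%) and 624 lower (3.3%). A share of 0.05 of the genes tested is 946. DESeq2, fitted to the same libraries and design, called 238 genes, 127 of them higher on sucrose (0.672% of genes tested) and 111 lower (0.587%). These calls are not all shared by both genotypes. Slc22a23, called lower, had 60.9 and 43.0 CPM in db/db sucrose livers, against 57.1 and 51.7 CPM in db/db water livers. In db/+ it had 0.0523 and 0.0695 CPM on sucrose, against 74.3 and 57.8 CPM on water. Taken within db/db, edgeR called 2 genes (0.0106%), and within db/+ 8 genes (0.0423%).

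Levels below are in CPM, with library totals adjusted by edgeR's TMM factors, and are given for single libraries. A set of 4 values holds replicates 1 and 2 of db/db and then replicates 1 and 2 of db/+. Differences are log2 fold changes of sucrose over water with genotype as a covariate, each with its standard error (SE). A gene is called separated where both sucrose libraries lay on 1 side of both water libraries in db/db and in db/+, in the same direction. Among all genes tested, 822 were separated with sucrose higher (4.35%) and 862 with sucrose lower (4.56%). The median log2 fold change of all genes was 0.01. A gene is said to have a library near 0 when its median was at least 100 counts and a library had under 0.1 of that median, as was so for 873 genes tested (4.62%). The median was taken over all 8 livers of both genotypes. A gene with a large genotype or drink difference can thus meet this rule at levels well above 0. Depth was 62331618 to 73843890 counts per sucrose library and 60386112 to 79385804 per water library. Summed levels of 10 hepatocyte markers ran from 84810 to 95650 CPM in sucrose livers and from 74910 to 104800 CPM in water livers, and mitochondrial ribosomal RNA took 0.263% to 1.29% of counts in sucrose livers and 0.319% to 1.05% in water livers.

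The Cyp2c genes encode P450 enzymes that oxidise drugs and turn arachidonic acid into epoxides. The family was singled out after its values were seen, since 2 of its members stood among the genes with the smallest p. Of the 13 members tested, 12 had a log2 fold change below 0, 9 were separated with sucrose lower, and the median was -1.06. DESeq2 called 5 of them lower, which were Cyp2c50, Cyp2c37, Cyp2c29, Cyp2c23 and Cyp2c54. The promoters of 3 members, picked after their values were seen, are shown as examples. These genes had the same direction in both genotypes and lie in the same gene cluster. Other members, such as Cyp2c23 and Cyp2c54, also had values below 0 in both genotypes, and their promoters are not shown. They are RefSeq sequences of the build GRCm38.p6, on the plus strand, from 250 bases before to 50 bases after the gene start. The files' own build is GRCm39. Capitals mark CAAAGTNCA, a form of the site of HNF4A, a nuclear receptor that liver cells need for many P450 genes. It was searched on both strands.
Cyp2c50, chr19:40089429-40089728: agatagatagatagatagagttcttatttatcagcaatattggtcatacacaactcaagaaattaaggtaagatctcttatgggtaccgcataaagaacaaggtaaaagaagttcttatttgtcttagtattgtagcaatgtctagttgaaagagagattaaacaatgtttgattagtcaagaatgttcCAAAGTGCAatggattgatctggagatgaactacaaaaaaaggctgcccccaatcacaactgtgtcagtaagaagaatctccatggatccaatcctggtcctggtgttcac
Cyp2c37, chr19:39992174-39992473: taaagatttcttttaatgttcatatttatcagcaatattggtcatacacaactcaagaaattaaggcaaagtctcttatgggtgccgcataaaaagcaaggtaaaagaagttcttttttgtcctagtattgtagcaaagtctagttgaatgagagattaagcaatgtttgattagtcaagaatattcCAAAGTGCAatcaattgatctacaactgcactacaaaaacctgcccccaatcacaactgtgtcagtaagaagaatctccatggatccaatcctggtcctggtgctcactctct
Cyp2c29, chr19:39286835-39287134: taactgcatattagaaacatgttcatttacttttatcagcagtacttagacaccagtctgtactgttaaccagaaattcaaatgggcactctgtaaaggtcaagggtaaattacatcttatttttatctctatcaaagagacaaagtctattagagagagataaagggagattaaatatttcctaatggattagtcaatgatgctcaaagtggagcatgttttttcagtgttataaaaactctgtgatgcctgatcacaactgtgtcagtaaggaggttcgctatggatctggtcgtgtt
The motif starts 61 bases before the start of Cyp2c50 and 63 bases before that of Cyp2c37, and its letters are not in this window of Cyp2c29. It occurs in 380 of 27025 mouse promoters of the same length (1.41%). Of the 20 genes described below, 14 had a promoter sequence at hand, and Cyp2c50 alone of these held it. A second motif, CACGTG, was also searched. It was in 1957 of the 27025 promoters (7.24%) and in 3 of the 14, those of Asgr2, Cic and Prxl2a. In a gapped alignment the windows of Cyp2c50 and Cyp2c37 were identical at 86.6% of positions, and those of Cyp2c50 and Cyp2c29 at 60.4%. Similarity of the transcripts was not measured. The Cyp2c family holds close relatives, and how the deposited counts divide reads between them is not known, so the family sum is given as well.

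The summed Cyp2c level was 925 and 797 CPM in the db/db sucrose livers and 1421 and 1345 CPM in the db/+ sucrose livers. In the water livers it was 1605 and 1867 CPM in db/db and 2748 and 2795 CPM in db/+. Every sucrose liver lay below both water livers of its genotype, and the db/+ sucrose livers lay below the db/db water livers as well. The livers of mice given brazzein had 1193 and 1175 CPM in db/db and 2897 and 2173 CPM in db/+.

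Cyp2c50 had 156 and 105 CPM in db/db sucrose livers and 309 and 308 CPM in db/+ sucrose livers, against 382 and 478 CPM in db/db water livers and 674 and 670 CPM in db/+ water livers. The drinks did not overlap in either genotype, and the log2 fold change was -1.42 (SE 0.18). Within genotypes it was -1.72 in db/db and -1.12 in db/+. Cyp2c37 had 53.0, 36.8, 224 and 187 CPM on sucrose, against 169, 202, 364 and 437 CPM on water. Its log2 fold change was -1.505 (SE 0.26), with -2.05 in db/db and -0.96 in db/+, and the difference between the genotypes did not pass adjustment over all genes. Cyp2c29 (log2 -0.88, SE 0.14) and Cyp2c23 (log2 -0.84, SE 0.14) were also separated. Cyp2c23 had 34.0 and 25.4 CPM in db/db and 148 and 141 CPM in db/+ on sucrose, against 43.9 and 57.2 CPM in db/db and 297 and 247 CPM in db/+ on water. Cyp2c54 had 16.3, 4.25, 132 and 109 CPM on sucrose, against 38.4, 31.4, 343 and 335 CPM on water, and its lowest db/db library counts as near 0. In all 5 genes both sucrose livers of a genotype were the low pair. Cyp2c67, Cyp2c70 and Cyp2c38 overlapped in 1 genotype each, and Cyp2c69 was the member with a value above 0 (log2 0.11, SE 1.09).

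**Figure D1:**
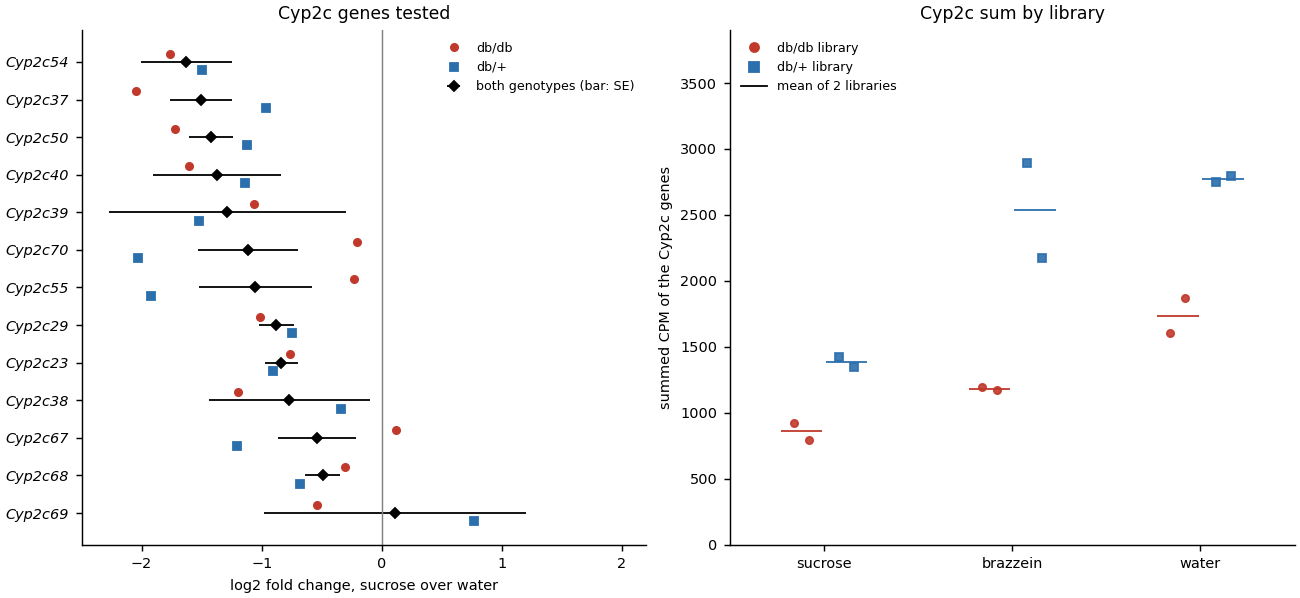
Left: log2 fold change of sucrose over water for each of the 13 Cyp2c genes tested, with both genotypes together (diamond, bar SE) and within db/db (circle) and db/+ (square). Right: summed CPM of the family in each liver library by drink, with the mean of 2 libraries as a line; the sucrose livers of each genotype lie below its water livers.

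The wider list of xenobiotic metabolism, of which the Cyp2c genes are a part, held 43 genes, all tested. Of these, 36 had a log2 fold change below 0 and 7 above, against 48.5% and 51.5% of all genes, and the list's median was -0.43. Leaving out each library in turn put that median between -0.55 and -0.30. Separated members numbered 9 with sucrose lower and 1 with sucrose higher. Outside the Cyp2c family, Ces2a, a carboxylesterase that cleaves ester drugs and lipids, had 126 and 124 CPM in db/db and 246 and 291 CPM in db/+ on sucrose, against 213 and 188 CPM in db/db and 455 and 352 CPM in db/+ on water (log2 -0.63, SE 0.11). Ugt2b1 and Ugt2b5, which attach glucuronic acid, and Gstm2, which attaches glutathione, were separated in the same direction with log2 fold changes of -0.53, -0.29 and -0.55. Gstp1, another glutathione transferase, was the member separated with sucrose higher (log2 0.26, SE 0.10). Its levels were 562, 548, 1749 and 1773 CPM on sucrose, against 507, 401, 1450 and 1533 CPM on water.

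The 20 genes with the smallest unadjusted p that were separated in both genotypes, had a mean of at least 1 CPM and had no library near 0 were taken in each direction, 10 higher and 10 lower on sucrose. Their edgeR adjusted p ran from 0.203 to 0.403. Under DESeq2 all 20 had an adjusted p under 0.05, between 4.67e-13 and 0.00393. In 300 fits with other edgeR settings the adjusted p of these genes ran from 0.015 to 1, and 2 were under 0.05, for Cic without the second db/+ sucrose library and for Hectd2os without the first db/db water library. The direction was the same in all 320 alternative fits of these 20 genes together. Since separation and p chose the 20 genes, their values are a description. The kept direction follows largely from that choice and is no added support for these genes.

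**Figure D2:**
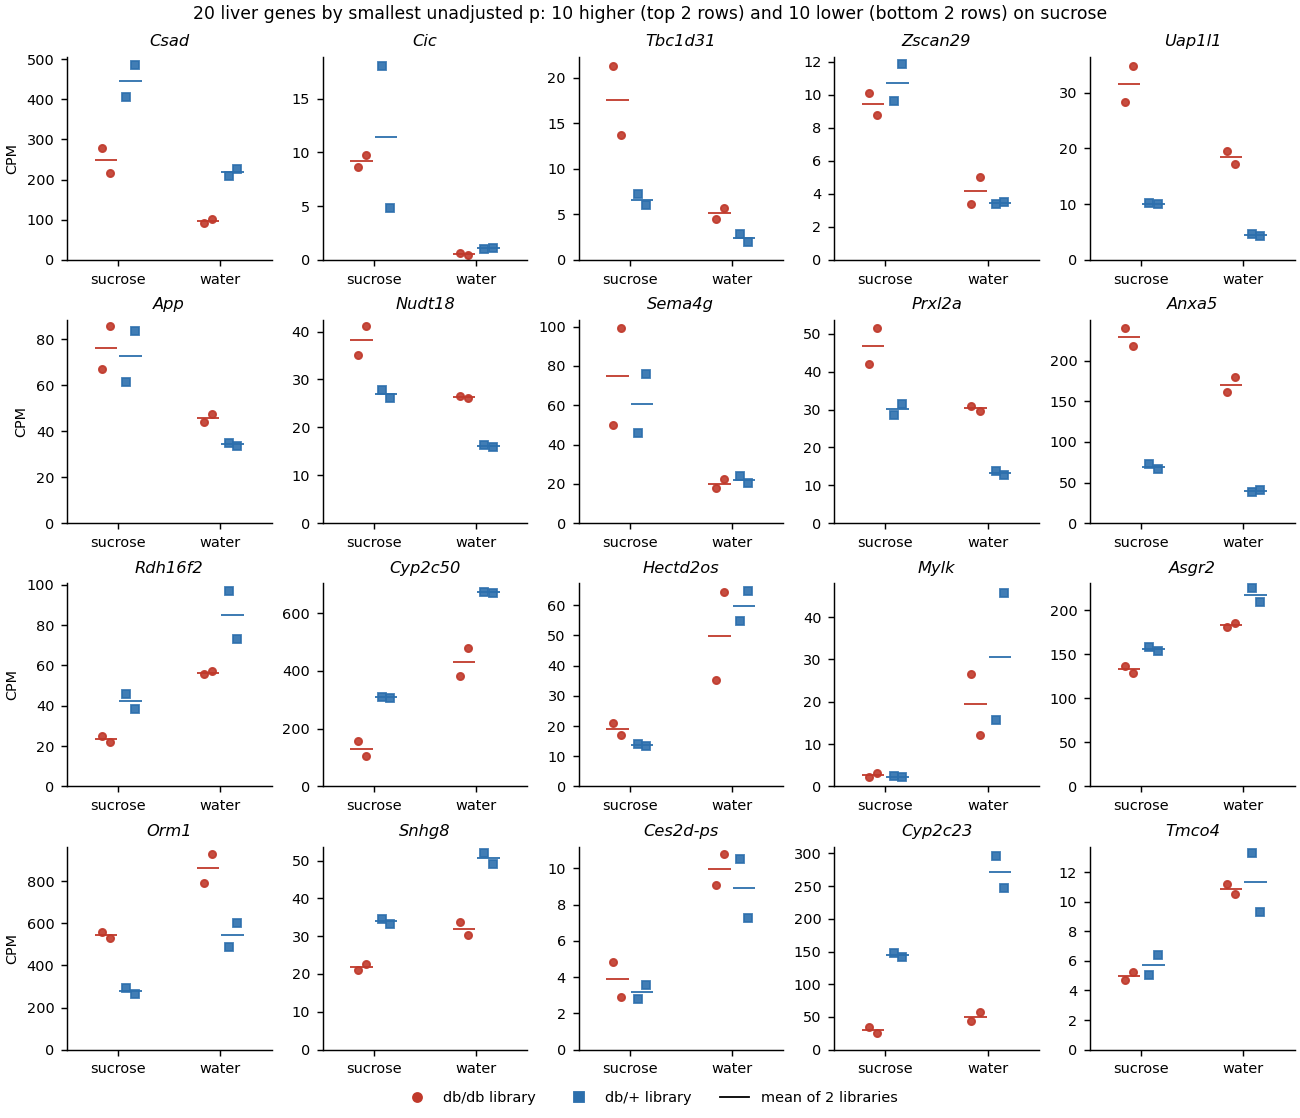
CPM (linear axes from 0) of the 20 genes in each sucrose and water liver, with db/db as circles, db/+ as squares and a line at the mean of 2 libraries. In the upper 10 genes both sucrose points of each genotype lie above its water points, and in the lower 10 they lie below.

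Csad encodes cysteine sulfinic acid decarboxylase, the enzyme of taurine synthesis in liver, and taurine is joined to bile acids before they leave the cell. It had 278 and 218 CPM in db/db sucrose livers and 405 and 485 CPM in db/+ sucrose livers, against 92.1 and 103 CPM in db/db water livers and 209 and 228 CPM in db/+ water livers. The lowest sucrose liver, a db/db one, lay between the db/+ water livers, and within each genotype the drinks were well apart. The log2 fold change was 1.19 (SE 0.13), with 1.35 in db/db and 1.03 in db/+. DESeq2's adjusted p was 8.15e-10, and that of the main edgeR fit was 0.203. Over all 8 alternatives that kept every library, among them a fit without the genotype covariate, the adjusted p ran up to 1. The brazzein livers had 157 and 65.7 CPM in db/db and 136 and 95.6 CPM in db/+.

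App, the amyloid precursor protein, had 67.1, 85.6, 61.5 and 83.6 CPM on sucrose, against 44.1, 47.3, 34.9 and 33.7 CPM on water, so that no sucrose liver of either genotype overlapped any water liver. Anxa5, which binds phosphatidylserine at membranes, had 240 and 219 CPM in db/db and 72.6 and 66.7 CPM in db/+ on sucrose, against 161 and 180 CPM in db/db and 38.7 and 40.5 CPM in db/+ on water (log2 0.62, SE 0.11). Uap1l1, related to the enzyme that makes UDP-N-acetylglucosamine, had 28.3, 34.9, 10.2 and 9.99 CPM on sucrose, against 19.6, 17.2, 4.58 and 4.37 CPM on water. For Anxa5 and Uap1l1 the db/db livers were above the db/+ livers on either drink. Prxl2a, a peroxiredoxin-like protein (log2 0.91, SE 0.15), Nudt18, which cleaves oxidised nucleotides (0.64, SE 0.10), and Sema4g, a semaphorin (1.68, SE 0.28), were also in the higher set.

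Cic, a transcriptional repressor downstream of growth factor signals, had the greatest log2 fold change of the 20 genes at 3.68 (SE 0.44). Its levels were 8.63, 9.72, 18.0 and 4.84 CPM on sucrose, against 0.667, 0.508, 1.02 and 1.12 CPM on water. The 2 db/+ sucrose livers differed from each other by more than the db/db sucrose livers did. In brazzein livers it was 1.15 and 2.26 CPM in db/db and 21.8 and 3.46 CPM in db/+, so that 1 library of that group stood far above the rest. Tbc1d31, a protein of the centrosome (log2 1.62, SE 0.22), and the zinc finger gene Zscan29 (1.41, SE 0.20) complete the set.

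In the set with lower levels on sucrose, Orm1, the acute phase protein orosomucoid, had 562 and 530 CPM in db/db and 291 and 266 CPM in db/+ on sucrose, against 791 and 932 CPM in db/db and 486 and 604 CPM in db/+ on water (log2 -0.81, SE 0.12). Asgr2, a subunit of the receptor that clears glycoproteins lacking sialic acid, had 137, 128, 158 and 154 CPM on sucrose, against 181, 185, 225 and 209 CPM on water. Asgr2 had the smallest spread of the set, with a log2 fold change of -0.47 (SE 0.07). All 4 sucrose livers lay below all 4 water livers for this gene. Orm1 has close copies, so its share of reads is uncertain.

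Rdh16f2, of a family of enzymes that oxidise retinols and steroids, had 24.9 and 22.1 CPM in db/db and 46.0 and 38.6 CPM in db/+ on sucrose, against 55.7 and 57.2 CPM in db/db and 96.9 and 72.9 CPM in db/+ on water (log2 -1.13, SE 0.13). The sucrose livers were the low pair in each genotype. Mylk, myosin light chain kinase, which drives contraction in smooth muscle, had 2.29, 3.21, 2.49 and 2.15 CPM on sucrose, against 26.5, 12.3, 15.6 and 45.8 CPM on water (log2 -3.27, SE 0.46). Mylk in brazzein livers ranged from 28.7 to 53.5 CPM. The rest were Hectd2os (log2 -1.76, SE 0.25), a transcript opposite Hectd2 that cannot be told apart from it without strand information, Snhg8 (-0.56, SE 0.09), a host of small nucleolar RNA, the carboxylesterase pseudogene Ces2d-ps (-1.42, SE 0.23), the membrane protein gene Tmco4 (-1.05, SE 0.17), and the 2 Cyp2c genes described above.

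For sugar use, the list of fructose and glucose genes held 31 members, of which 23 had a log2 fold change above 0, 3 were separated with sucrose higher and 1 with sucrose lower. The median was 0.31, and 0.17 without the first db/+ sucrose library. It was 0.11 in db/db and 0.42 in db/+, and 10 of the 31 genes had an unadjusted interaction p under 0.05. Summed levels of the list were 15350 to 15430 CPM in db/db and 10490 to 12190 CPM in db/+ on sucrose, against 15220 to 15270 CPM in db/db and 8620 to 8808 CPM in db/+ on water, so the gap was narrow in db/db and wider in db/+. Gpi1, which converts glucose and fructose phosphates, had 297, 298, 203 and 180 CPM on sucrose, against 247, 230, 147 and 138 CPM on water (log2 0.37, SE 0.08). DESeq2 called it with an adjusted p of 0.0123. The main edgeR fit gave 0.5075, and the edgeR alternatives, among them a fit without the genotype covariate, ran up to 1. G6pdx, the entry to the pentose phosphate pathway, was also separated with sucrose higher (log2 0.58, SE 0.19), and Pfkfb3, which makes the activator of phosphofructokinase, the member with sucrose lower (-0.63, SE 0.23). Khk, the ketohexokinase gene itself, had 484, 521, 236 and 228 CPM on sucrose, against 590, 737, 318 and 213 CPM on water, and the drinks overlapped in db/+ (log2 -0.30, SE 0.15). Pklr, liver pyruvate kinase and a ChREBP target, had 223, 173, 34.0 and 49.5 CPM on sucrose, against 182, 132, 19.3 and 6.05 CPM on water, with overlap in db/db (log2 1.02, SE 0.45). Its value was 0.33 in db/db and 1.72 in db/+, its lowest db/+ library counts as near 0, and without that library, the second db/+ water one, the pooled value was 0.63.

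For fat synthesis, 11 of the 21 genes of the list had a log2 fold change above 0 and 10 below, with a median of 0.01. Acly, which makes cytosolic acetyl-CoA from citrate, was the member separated with sucrose higher. It had 138 and 98.1 CPM in db/db and 45.7 and 36.1 CPM in db/+ on sucrose, against 81.9 and 80.3 CPM in db/db and 33.0 and 26.8 CPM in db/+ on water (log2 0.50, SE 0.14). Acss2, which makes acetyl-CoA from acetate, was separated with sucrose lower (-0.69, SE 0.29). Fasn, fatty acid synthase, had 323, 234, 39.3 and 34.4 CPM on sucrose, against 231, 191, 49.4 and 33.2 CPM on water (log2 0.12, SE 0.20). Scd1, stearoyl-CoA desaturase, had 12210, 4339, 1883 and 2157 CPM on sucrose, against 13230, 4945, 3300 and 1793 CPM on water (log2 -0.24, SE 0.43). The 2 db/db livers of each drink differed by more than the drinks did for Scd1, and for both Fasn and Scd1 the db/db livers lay above the db/+ livers on either drink. Srebf1 was lower on sucrose in the pooled estimate (log2 -0.76, SE 0.38) and overlapped in db/+, and it was -0.46 without the second db/+ sucrose library and -1.09 without the first. Acaca, acetyl-CoA carboxylase, ranged from 0.0349 to 35.6 CPM among sucrose livers and from 0.0721 to 21.99 CPM among water livers, and no direction is read from it. The 21 genes of ChREBP and its targets had a median of -0.01.

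Of the genes that lengthen and desaturate fatty acids, 14 of 18 had a log2 fold change above 0 and 4 were separated with sucrose higher, with a median of 0.18. These were Elovl2 (log2 0.52, SE 0.16) and Fads2 (0.48, SE 0.23), both of the pathway to long polyunsaturated fatty acids, and Elovl1 and Elovl7. Elovl2 had 391 and 401 CPM in db/db and 848 and 716 CPM in db/+ on sucrose, against 294 and 219 CPM in db/db and 471 and 700 CPM in db/+ on water. The margin in db/+ was narrow, with the second water liver just under the second sucrose liver. Fgf21, a hormone that the liver releases on sugar intake or fasting, had 13.6, 17.1, 13.6 and 20.5 CPM on sucrose, against 11.7, 10.2, 4 and 10.3 CPM on water. All 4 sucrose livers lay above all 4 water livers (log2 0.87, SE 0.34).

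The leptin receptor gene Lepr was measured as the whole gene, which does not tell its long form from the shorter ones and so does not check the genotype. It had 1.60 and 2.60 CPM in db/db and 14.1 and 18.9 CPM in db/+ on sucrose, against 1.36 and 0.698 CPM in db/db and 2.44 and 6.70 CPM in db/+ on water. Lepr was separated with sucrose higher (log2 1.44, SE 0.42) and its edgeR adjusted p was 0.684, which was not past the threshold. The brazzein livers had 1.46 and 1.65 CPM in db/db and 1.91 and 2.81 CPM in db/+.

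For some metabolic genes the point values had opposite signs in db/db and db/+. Mlxipl had 123 and 134 CPM in db/db sucrose livers against 38.4 and 59.5 CPM in db/db water livers (log2 1.39), while db/+ livers had 93.1 and 102 CPM on sucrose against 112 and 122 CPM on water (log2 -0.26). Ppara, the receptor that switches on fat burning, had log2 fold changes of 1.87 in db/db and -0.60 in db/+. Cidec, which enlarges lipid droplets, had 255 and 211 CPM in db/db sucrose livers against 291 and 242 CPM in db/db water livers (log2 -0.20), while db/+ livers had 87.8 and 82.5 CPM on sucrose against 18.6 and 28.6 CPM on water (log2 1.85). The drinks overlapped for Cidec in db/db, where the SE was 0.23. Cidec meets the near-0 rule through a db/+ water liver at 18.6 CPM, as the median is over both genotypes. Cpt1a (0.37 in db/db, -1.52 in db/+) and Cd36 (-0.28, 1.36) also had opposite signs, with overlap of the drinks in db/db for both. The unadjusted p of the interaction was 0.00156 for Mlxipl, 0.00451 for Ppara and 0.000769 for Cidec, and none of these genes passed adjustment over all genes. The interaction as a whole had 7 calls among 18911 genes (0.037%) and 1178 genes at an unadjusted p under 0.05 (6.23%). All 7 called genes, and 9 of the 10 calls within a genotype, had libraries near 0, and leaving out genes of that kind left 0 calls in each of these comparisons.

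**Figure D3:**
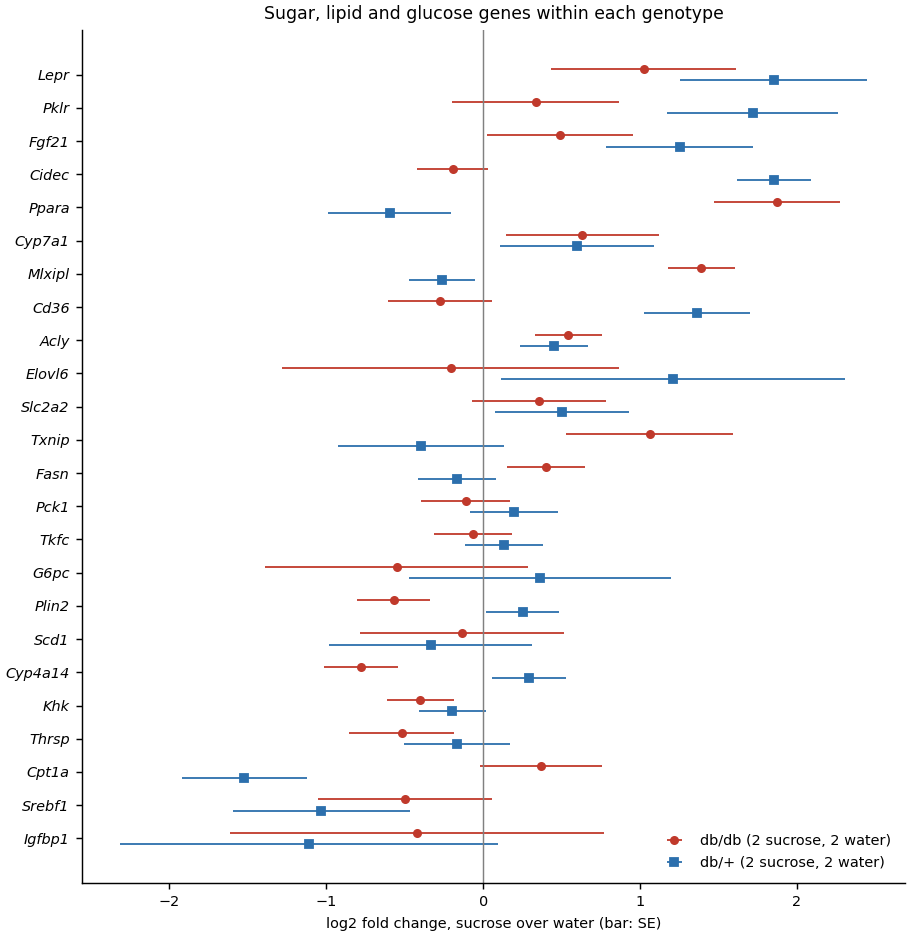
Log2 fold change of sucrose over water with its SE for 24 genes of sugar, fat and glucose handling and Lepr, within db/db (circles) and within db/+ (squares), ordered by the pooled value. Acly, Fgf21 and Lepr lie above 0 in both genotypes, while Mlxipl, Ppara, Cidec, Cd36 and Cpt1a lie on opposite sides of 0.

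Clock, a core gene of the circadian clock, was among the genes with libraries near 0. It had 14.1, 10.8, 26.8 and 10.7 CPM on sucrose, against 2.67, 1.02, 0.593 and 0.115 CPM on water, and 0 to 0.0662 CPM in brazzein livers. The other clock genes did not share this direction, as 11 of the 20 tested had a log2 fold change below 0. The hour at which tissue was taken is not in the labels.

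The 24 markers of Kupffer cells and macrophages were all tested. Their median log2 fold change was 0.78, with 0.71 in db/db and 0.91 in db/+, and 6 were separated with sucrose higher and 0 with sucrose lower. The summed level of the list was 682 and 731 CPM in db/db and 259 and 575 CPM in db/+ on sucrose, against 421 and 428 CPM in db/db and 186 and 299 CPM in db/+ on water. The sums did not overlap in db/db, while in db/+ the first sucrose liver lay below the second water liver. Without the second db/+ sucrose liver the list's median was 0.43. In bulk tissue, more macrophages and more RNA per macrophage cannot be told apart.

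Cd5l, a secreted protein of tissue macrophages, had 73.2 and 69.9 CPM in db/db and 16.6 and 19.3 CPM in db/+ on sucrose, against 31.9 and 21.6 CPM in db/db and 3.59 and 8.43 CPM in db/+ on water (log2 1.497, SE 0.27). DESeq2 called it, with an adjusted p of 0.000465, and edgeR's adjusted p was 0.421. Cd9, a tetraspanin, was the other marker that DESeq2 called (log2 0.71, SE 0.15, adjusted p 0.0137, with 0.507 in edgeR). Lyz2, lysozyme, had 69.1, 48.9, 19.9 and 48.0 CPM on sucrose, against 27.4, 32.5, 11.0 and 17.1 CPM on water (log2 1.12, SE 0.30). Trem2 (log2 1.03, SE 0.30), Gpnmb (1.79, SE 0.65) and Itgam (0.82, SE 0.34) were the remaining separated markers. Trem2 and Gpnmb mark lipid-laden macrophages, and in db/+ both were at most 0.653 CPM on sucrose and 0.288 CPM on water. Resident Kupffer cell markers such as Clec4f (log2 0.68, SE 0.34) and Vsig4 (0.88, SE 0.41), and the receptor gene Csf1r (0.72, SE 0.29), had values above 0 with overlap in 1 genotype. Spp1 was the member below 0 (log2 -0.04, SE 0.25).

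**Figure D4:**
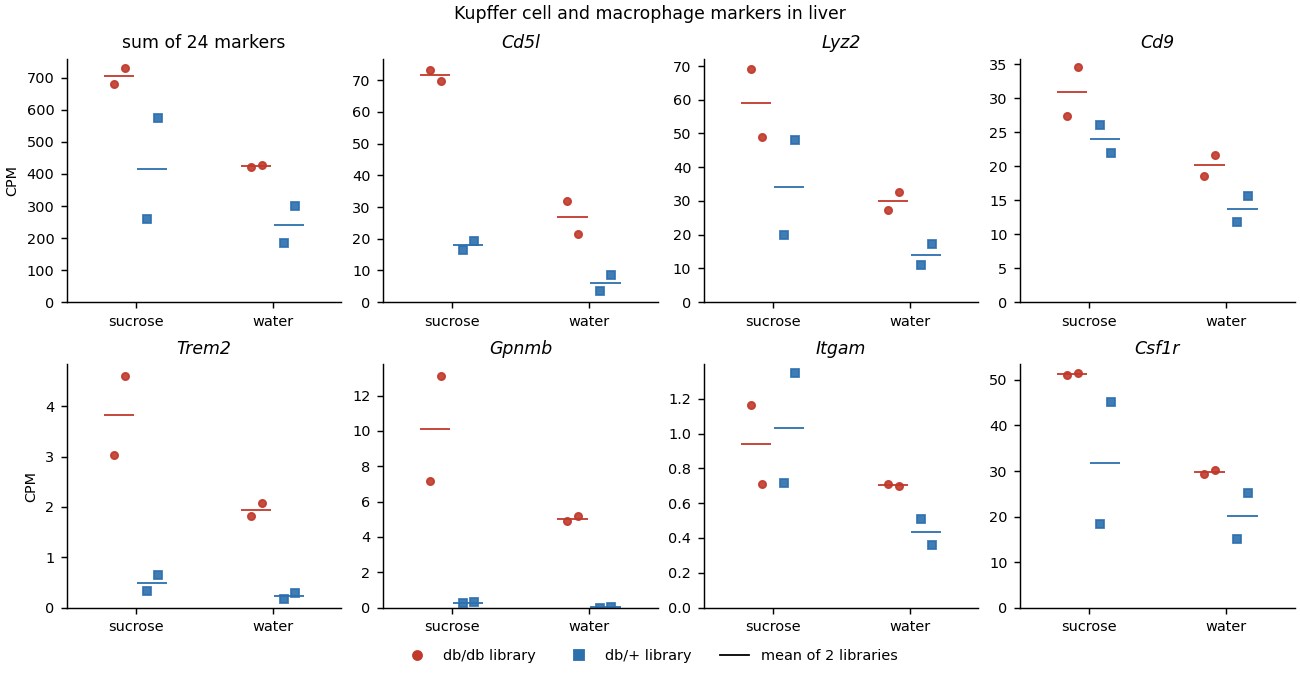
Summed CPM of the 24 Kupffer cell and macrophage markers, and CPM of 7 of them, in each sucrose and water liver, with linear axes from 0, db/db as circles, db/+ as squares and lines at the mean of 2 libraries. The db/db sums on sucrose lie above those on water, and the db/+ sums overlap.

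Markers of other cell types that a piece of liver can hold were summed in the same way. Stellate cell and matrix genes had a median of 0.25 (0.14 without the second db/db sucrose library), with 27 of 30 above 0. Separated with sucrose higher were 2 of the 30, Acta2 and Tagln, where 4.35% of all genes tested were. The sum of the list was 465 to 603 CPM in db/db and 406 to 481 CPM in db/+ on sucrose. On water it was 425 to 455 CPM in db/db and 324 to 439 CPM in db/+. Lymphocyte markers had a median of 0.64 in db/db and -0.38 in db/+, and endothelial markers 0.38 and -0.08, so neither had a shared direction. Adipocyte markers summed to 102 to 140 CPM in db/db sucrose livers against 218 to 230 CPM in db/db water livers, and to 13.6 to 15.2 CPM in db/+ sucrose livers against 9.88 to 13.0 CPM in db/+ water livers. Neutrophil markers had 9 of 10 values above 0 and a median of 0.42, with sums of 7.79 to 8.03 CPM in db/db and 3.35 to 5.79 CPM in db/+ on sucrose, against 5.66 to 6.04 CPM in db/db and 3.07 to 3.44 CPM in db/+ on water. Cholangiocyte markers had a median of 0, and erythroid markers of -0.30, with sums of 660 to 1954 CPM on sucrose and 771 to 3752 CPM on water. The part of these cell types in the gene differences above was not tested.

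The 31 interferon response genes had 24 values above 0 and a median of 0.25, and 7 were separated with sucrose higher and 0 with sucrose lower. Among them were the sensors Ifih1 and Ddx58, the induced genes Isg15 and Ifi44, and Psmb9 and Tap1, which serve antigen presentation. Isg15, a ubiquitin-like modifier, had 8.48 and 9.19 CPM in db/db and 13.9 and 13.8 CPM in db/+ on sucrose, against 7.201 and 6.36 CPM in db/db and 9.22 and 10.4 CPM in db/+ on water (log2 0.44, SE 0.13). It was the 1 gene of the list that DESeq2 called (adjusted p 0.0137, with 0.684 in edgeR). Within genotypes the list's median was 0.29 in db/db and 0.18 in db/+. Its summed level overlapped in db/db, with 3790 to 4273 CPM on sucrose and 4213 to 4257 CPM on water. In db/+ it was 4275 to 4842 CPM on sucrose and 4202 to 4242 CPM on water. The macrophage sum was higher in db/db on sucrose, and its part in these values was not tested.

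Acute phase proteins had 24 of 33 values below 0 and a median of -0.22, which was -0.12 without the second db/db water library. Within genotypes it was -0.35 in db/db and -0.04 in db/+, and 7 members had an unadjusted interaction p under 0.05. Besides Orm1, complement C3 (log2 -0.19, SE 0.10) and metallothionein Mt1 (-1.12, SE 0.40) were separated with sucrose lower, and haptoglobin, Hp, was separated with sucrose higher (0.31, SE 0.12). Of the 27 genes of ER chaperones and the unfolded protein response, 24 had values below 0, and Atf4, Dnajc3 and Dnajb11 were separated with sucrose lower. Atf4, the transcription factor of the amino acid and stress response, had 87.8, 83.2, 77.4 and 78.0 CPM on sucrose, against 94.6, 101, 111 and 129 CPM on water (log2 -0.41, SE 0.11). The list's median was -0.27, with -0.01 in db/db and -0.49 in db/+, and -0.02 without the second db/+ water library. That library's count column alone carries the word trim in its header.

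Genes of the cytosolic ribosome had small differences in 1 direction, with 65 of 70 values below 0, 10 separated with sucrose lower and a median of -0.11. Nuclear genes of the respiratory chain had 42 of 50 values below 0 and the same median, with -0.28 in db/db and 0.08 in db/+, and -0.06 without the second db/db sucrose library. Of these 50 genes, 17 had an unadjusted interaction p under 0.05, where 6.23% of all genes tested did. The list thus had no direction shared by both genotypes. Uqcr11, a subunit of complex III, had 226 and 195 CPM in db/db and 242 and 236 CPM in db/+ on sucrose, against 271 and 283 CPM in db/db and 260 and 311 CPM in db/+ on water (log2 -0.33, SE 0.09). Most transcripts of these 2 lists are short, and transcript length moved with the fold change. Across 12251 genes the Spearman correlation of length with log2 fold change was 0.27 in db/db, -0.03 in db/+ and 0.14 pooled. Split by length into 3 equal groups, the shortest genes had a pooled median of -0.03 and the longest 0.06. The part of length in the 2 lists was not tested.

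**Figure D5:**
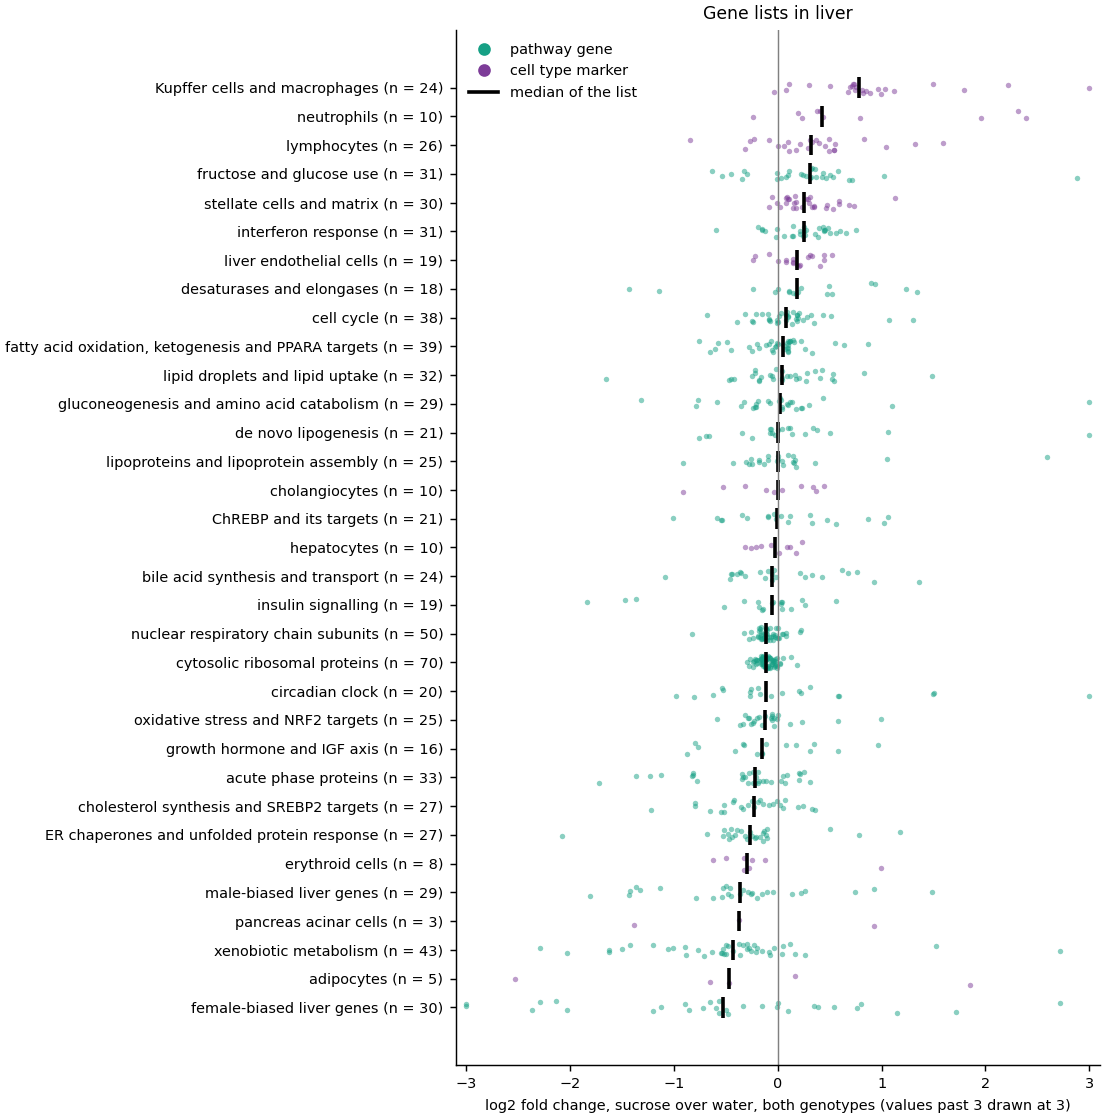
Log2 fold change of sucrose over water of every tested member of each gene list (dots; pathways and cell type markers in 2 colours), with the list's median as a black bar and 6 members past 3 drawn at the edge. Macrophage markers have the highest median at 0.78 and female-biased liver genes the lowest at -0.53, which is -0.31 without genes that have a library near 0.

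Genes with other roles in the liver were mostly without a shared direction. In the list of cholesterol synthesis the median was 0.26 in db/db and -0.46 in db/+. Tm7sf2, a sterol reductase, was lower on sucrose in both genotypes, with 30.6, 50.7, 22.1 and 31.0 CPM on sucrose, against 91.2, 53.0, 59.5 and 104 CPM on water (log2 -1.22, SE 0.32). Lcat, which esterifies cholesterol in plasma lipoproteins, had 277, 268, 316 and 299 CPM on sucrose, against 352, 351, 373 and 353 CPM on water (log2 -0.30, SE 0.07). Both were called by DESeq2, with adjusted p-values of 0.0401 and 0.0106, and not by edgeR, with 0.643 and 0.56. Apoa4, a lipoprotein of the gut and of fatty liver, had 11720, 14130, 6043 and 2428 CPM on sucrose, against 8218, 3981, 193 and 297 CPM on water (log2 2.60, SE 0.77). Its db/+ water levels, at 193 and 297 CPM, meet the near-0 rule through the higher levels of the other livers. Apoa4 was separated in both genotypes, with a log2 fold change of 1.08 in db/db and 4.11 in db/+.

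The list of amino acid catabolism and glucose production had a median of 0.02. Pck1, of glucose production, overlapped between the drinks in both genotypes (log2 0.04, SE 0.20). G6pc, which releases glucose, overlapped in db/+ only (log2 -0.09, SE 0.58). In db/db, G6pc had 208 and 117 CPM on sucrose, against 219 and 257 CPM on water. Otc of the urea cycle, Hpd and Oat of amino acid breakdown, and Agxt of glyoxylate disposal were the 4 separated members, all with sucrose lower. DESeq2 called 1 member of the list, Ppargc1a, a coactivator of glucose production and mitochondrial genes, and with sucrose higher (log2 4.16, SE 1.38; adjusted p 0.0111, with 0.719 in edgeR). Ppargc1a had 16.7, 17.7, 0.61 and 0.0834 CPM on sucrose, against 0.412, 0.0635, 0.153 and 0.0576 CPM on water, and the drinks overlapped in db/+. Otc had 300, 278, 290 and 324 CPM on sucrose, against 345, 450, 370 and 366 CPM on water (log2 -0.36, SE 0.11). Slc27a5, which attaches CoA to bile acids and takes up fatty acids, was also lower on sucrose, with 527, 412, 573 and 460 CPM against 642, 776, 667 and 607 CPM on water. Its sucrose livers of db/+ lay below both water livers of that genotype, as did those of db/db (log2 -0.45, SE 0.14). Cyp7a1, the first enzyme of bile acid synthesis, was between 0.593 and 1.51 CPM in all 8 livers, with overlap in db/db.

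Genes that differ between male and female mouse liver under growth hormone were included because many P450 genes belong to them. Male-biased genes had 23 of 29 values below 0 and a median of -0.36, and female-biased genes 20 of 30 and -0.53. Within genotypes the medians were -0.09 in db/db and -0.32 in db/+ for male-biased genes, and -0.27 and -0.12 for female-biased genes. Of the female-biased genes 12 had a library near 0, and without genes of that kind the pooled median was -0.31. Without a single library, the first median ran from -0.56 to -0.12 and the second from -0.79 to -0.28. Several members also stand in the xenobiotic list, and Sult1e1 was at most 0.317 CPM in all db/+ livers of both drinks.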

How the data were processed

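Poly(A) RNA libraries were made with a NEBNext Ultra II RNA kit, per the labels' protocols, and no strand option is named, so reads of overlapping or antisense genes cannot be separated. The submitters' processing notes name bcl2fastq and the build GRCm39. Which aligner, counter and annotation were used is not given in the sources used here. The files hold the authors' estimated counts per gene, deposited as whole numbers and not scaled for library size. Because they are estimates, no counting interval was computed.

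Tests on the 8 libraries used edgeR 4.0.16 in R 4.3.3, with filterByExpr, TMM factors, and quasi-likelihood tests of drink with genotype as a covariate. Fits with a drink effect in each genotype gave the within-genotype values and the interaction. P-values were adjusted by Benjamini-Hochberg over all genes, with a threshold of 0.05. Other settings tried were RLE factors, DESeq2 1.42.0, keeping genes of low counts, all 12 liver libraries, 4 groups, no genotype covariate, a replicate block, leaving out genes with libraries near 0, and leaving out each library. Steps were tested on simulated data. The genes named were a panel, of which 26 are reported, the 10 higher and 10 lower genes described in the text, the member of smallest p in each list, and up to 6 genes of the interaction. Some genes are not reported here. Other list members, the Cyp2c family and Gm8893 were named after their values were seen. Members and lists were chosen with earlier results of these data known. Replicate numbers were not used as pairs in the main fits. The deviations of same-numbered libraries correlated at 0.07 in db/db and 0.02 in db/+. With 2 libraries per group, these values cannot show whether same-numbered samples were handled together. Replicates of a group had Spearman correlations of 0.927 to 0.961, lowest in db/+ water. The chi-square of replicate counts per degree of freedom was 422 in db/+ water, against 123 to 184 in the other groups. The db/+ water pair holds the library with trim in its header.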

Additional observations from a re-analysis of the deposited data

Results flagged for a closer look

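For 7 genes edgeR's test of the interaction, the sucrose effect in db/db minus that in db/+, passed an adjusted p of 0.05. In log2 these differences were 6.79 for Ireb2, 9.96 for Slc22a23, -7.85 for Scyl2, -12.29 for Kbtbd2, 5.51 for Gm8893, 4.94 for Arap2 and 11.34 for Dnaja4. All 7 had libraries near 0. The values of Kbtbd2 and Dnaja4, each listed at 0 in both libraries of a group, are fitted ones that depend on the prior count and are neither folds nor bounds. Ireb2, an iron regulatory protein, had 41.3 and 52.0 CPM in db/db sucrose livers and 0.488 and 0.486 CPM in db/+ sucrose livers, against 57.2 and 57.7 CPM in db/db water livers and 69.5 and 63.6 CPM in db/+ water livers. In db/+ brazzein livers the same gene had 0.36 CPM in 1 library and 85.4 CPM in the other, so that replicates of 1 group also differed in this way. Scyl2 was near 0 in the db/+ water livers (0.203 and 0.115 CPM) and at 30.5 to 48.1 CPM in the other 6 sucrose and water livers. Among sucrose and water livers, the libraries at 0 were the db/+ sucrose livers for Dnaja4 and the db/+ water livers for Kbtbd2. Arap2 was near 0 in the db/db water livers, with 0.384 and 0.559 CPM. Gm8893 was at 5.92 and 7.98 CPM there, against 229 to 520 CPM in the other sucrose and water livers. Slc22a23 was at 0.0523 and 0.0695 CPM in the db/+ sucrose livers and between 43.0 and 74.3 CPM in the other sucrose and water livers. In brazzein livers Slc22a23 had 44.7 and 0.015 CPM in db/db and 0 and 65.9 CPM in db/+. Scyl2 had 23.0 and 1.56 CPM there in db/db and 2.45 and 30.4 CPM in db/+. Arap2 had 0.49 and 14.4 CPM in db/db and 4.5 and 0.166 CPM in db/+. Dnaja4 had 3.92 and 5.46 CPM in db/db and 4.3 and 0 CPM in db/+. Brazzein replicates of Kbtbd2 (0 to 0.234 CPM) and Gm8893 (187.5 to 676 CPM) did not split so.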

How the results depend on the processing

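The pooled count of 0 calls became 238 with DESeq2, 3 with all 12 liver libraries, 7 with 4 groups, and 0 to 4 without single libraries (1 without the second db/+ sucrose library, 4 without the first db/db water library). The interaction, with 7 calls, gave 219 with DESeq2, 3 with all 12 libraries, 0 without genes near 0, 0 with a replicate block, and 0 to 76 without single libraries. The 2 calls within db/db became 157, 1, 0 and 0 under the same settings and 0 to 1 without single libraries, and the 8 within db/+ became 419, 3, 0 and 0, and 4 to 107. The block also gave 0 pooled calls. The cause was not tested. Of 1003 alternative values for single genes in the pooled comparison, 954 kept direction and stayed uncalled, 26 passed the threshold and 23 changed sign. No gene was called in that comparison, so none could lose a call. The 7 genes called for the interaction are not in these counts, and none stayed called with the replicate block. Without a genotype covariate the sign changed for Tkfc (-0.009), Elovl6 (-0.028) and Cyp4a14 (0.011). With the replicate block it changed for G6pc (0.052). Acaca was at -0.02 with DESeq2, -0.038 with all 12 libraries and -0.022 with 4 groups. Ranges without single libraries that crossed 0 were -0.10 to 0.13 for Tkfc, -0.084 to 0.73 for Txnip, -0.51 to 0.44 for G6pc, -0.10 to 0.21 for Pck1, -0.61 to 1.15 for Acaca, -0.038 to 0.30 for Fasn, -0.62 to 0.07 for Scd1, -0.007 to 1.05 for Elovl6 and -1.12 to 0.31 for Igfbp1. The same ranges for list medians were 0.17 to 0.34 for fructose and glucose use, -0.21 to 0.021 for insulin signalling and -0.084 to 0.13 for fatty acid oxidation. Each group holds 2 libraries, and 873 tested genes have a library near 0.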
